A study of Homo sapiens with 9 samples.

Results

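Metallothioneins are small cysteine-rich proteins that bind zinc, copper and other metals, and SLC30A1 is the plasma membrane transporter that exports zinc from cells. This account follows the probe sets of 8 metallothionein genes, of SLC30A1 and of the zinc importer SLC39A10 on 9 arrays of Y79 cells, an established human retinoblastoma line. Members were the probe sets annotated to exactly 1 of these 10 gene symbols, which gave 20 probe sets among 49293 tested, 15 of them for metallothioneins and 5 for the transporters. The genes were selected on their log2 difference between bare-particle and untreated arrays, in which MT1X and MT1F were seen high and the other paralogs not, so that contrast is described here without a test of the members. Both groups of arrays serve again in the comparisons with the conjugate. There, no p-value is given for MT1X, MT1F or SLC30A1, nor for any member against the bare particle. All cells were grown in RPMI medium. The untreated group (Control), the group given bare gold nanoparticles (GNPs) and the group given gold nanoparticles conjugated with HDM2 peptide (GNPs-HDM2) each had 3 arrays. The source names of the treated samples spell the line Y97, while the cell line label of all 9 says Y79. The labels state no particle dose or exposure time, and they do not say whether the arrays of a group came from separate cultures, so each p-value sets a difference against a spread that may be technical.

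In human cells the transcription factor MTF1 binds metal response elements when zinc or cadmium rises, and it then switches on metallothionein genes and SLC30A1. SLC39A10 brings zinc into the cell, and its transcript is known to be repressed by MTF1 when zinc is plentiful. Oxidative and electrophilic stress also raise some metallothionein genes. In the retina, metallothioneins are known as zinc buffers, and MT3 is a form known from neurons and glia.

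The deposited log2 values of a probe set are stated against its own baseline and hold no absolute level. A value of 0 is the baseline, and levels of different genes cannot be set against each other. The baseline level itself left a trace in the step size of the stored numbers, by which probe sets were sorted into classes of 2 to 4 (dim), 4 to 8 (middle) and 8 to 16 (bright) on the log2 scale. Of the 20 member probe sets 4 were dim, 10 middle and 6 bright. Both MT1X probe sets, 1 of MT1F, both of SLC30A1 and 1 of SLC39A10 were bright. A class is that of the baseline, so a probe set far below its baseline on some arrays may belong to a lower class there.

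The conjugate arrays stood apart as a whole, and this touches every conjugate value below. Between conjugate and untreated arrays the median log2 difference was 0.49 over dim, 0.20 over middle and -1.04 over bright probe sets, and hybridization controls, which are spiked in at fixed amounts, had a median difference of 2.27. Between bare-particle and untreated arrays the same medians were -0.09, -0.05 and 0.07, with 0.30 for the hybridization controls. The SD over all probe sets was 1.25 and 1.49 on conjugate replicates 1 and 2, 0.64 on conjugate replicate 3, and 0.24 to 0.36 on the other arrays. Conjugate differences are therefore given both as deposited and after each array was centred on the median of each level class. Quantile normalization, an alternative below, gives all arrays 1 common distribution of these baseline-relative values. It thus widens the untreated and bare-particle arrays and narrows conjugate replicates 1 and 2, so its values, calls and lost calls need caution. The labelled cell type was set against marker lists only by the class of each gene's own probe sets, from which no order between genes is read. By the brightest probe set of each gene, 4 of 10 photoreceptor lineage markers, such as CRX and RBP3, were bright and 6 middle. Bright and middle were 2 and 3 of 5 Mueller glia and 1 and 4 of 5 pigment epithelium markers. The same counts were 0 and 5 of 6 fibroblast and 0 and 2 of 4 measured blood cell markers. Most markers of the other types were thus also bright or middle, so the classes do little to tell the types apart. The median conjugate difference from untreated arrays was -1.28 for the photoreceptor list and 0.36 (Mueller glia), 0.46 (fibroblast), 0.64 (blood) and 0.85 (pigment epithelium) for the others, and the part of these in the member values was not tested.

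The metallothionein genes lie together on chromosome 16, in the RefSeq order MT4, MT3, MT2A, MT1E, MT1M, MT1A, MT1B, MT1F, MT1G, MT1H and MT1X, with pseudogenes between them. MT1F and MT1X, the pair with high bare-particle values, are not neighbours, since MT1G and MT1H lie between them. Promoter sequence from RefSeq (GRCh38.p14) was at hand for 5 of the 10 genes. The 250 bases before the start of 4 of them are shown, because they set MT1X and SLC30A1, which lay above all untreated arrays with bare particles, beside MT2A and MT1H, whose groups overlapped. Capitals mark each match to the core of the metal response element, TGCACNC or TGCGCNC, on either strand.
MT1X, chr16:56682220-56682469, plus strand: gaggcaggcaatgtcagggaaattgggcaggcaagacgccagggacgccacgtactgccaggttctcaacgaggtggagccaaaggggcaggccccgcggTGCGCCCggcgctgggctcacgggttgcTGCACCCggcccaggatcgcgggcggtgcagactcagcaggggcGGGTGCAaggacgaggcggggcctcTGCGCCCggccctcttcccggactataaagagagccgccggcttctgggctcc
SLC30A1, chr1:211579162-211579411, minus strand: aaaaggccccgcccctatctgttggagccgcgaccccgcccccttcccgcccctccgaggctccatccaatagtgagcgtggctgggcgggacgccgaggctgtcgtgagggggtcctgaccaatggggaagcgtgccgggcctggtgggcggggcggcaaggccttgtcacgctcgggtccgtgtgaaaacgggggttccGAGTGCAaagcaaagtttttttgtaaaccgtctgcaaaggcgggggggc
MT2A, chr16:56608334-56608583, plus strand: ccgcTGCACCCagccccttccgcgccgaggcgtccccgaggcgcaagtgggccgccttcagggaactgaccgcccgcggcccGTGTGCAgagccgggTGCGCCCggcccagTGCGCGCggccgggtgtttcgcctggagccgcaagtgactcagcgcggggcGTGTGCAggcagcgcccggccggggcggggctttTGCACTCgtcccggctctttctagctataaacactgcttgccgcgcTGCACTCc
MT1H, chr16:56669564-56669813, plus strand: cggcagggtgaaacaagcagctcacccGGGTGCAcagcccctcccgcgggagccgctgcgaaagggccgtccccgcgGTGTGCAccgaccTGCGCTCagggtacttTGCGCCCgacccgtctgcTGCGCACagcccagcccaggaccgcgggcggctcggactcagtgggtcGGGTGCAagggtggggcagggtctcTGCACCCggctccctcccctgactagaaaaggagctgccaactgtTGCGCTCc
The window held 4 matches in MT1X, 1 in SLC30A1, 7 in MT2A and 8 in MT1H. Neither of the 2 windows of SLC39A10 held one. Of 35116 promoter windows of this length, 24.8% held at least 1 match, 1.58% at least 3 and 0.12% at least 5. The antioxidant response element TGACNNNGC, searched on both strands, had 1 match each in MT1X, SLC30A1 and MT2A and none in MT1H, and 10.9% of all windows held one. MT2A and MT1H held more metal response element matches than MT1X and SLC30A1. A match describes letters in a window and shows neither binding nor its lack.

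MT1X lay far higher on the bare-particle arrays than on all 3 untreated arrays. Its probe set 11757581_x_at read 0.40, 0.49 and 0.00 on the GNPs arrays and -3.21, -3.02 and -4.34 on the untreated arrays, a difference of 3.82 with a standard error of 0.50, or 14.1-fold. Its probe set 11726385_a_at read 0.55, 0.38 and 0.00 with bare particles and -2.27, -2.37 and -3.28 without, a difference of 2.95 with an error of 0.28, or 7.72-fold. Errors here and below rest on 1 common spread of all groups, the conjugate arrays included. The groups did not overlap in either probe set, and untreated replicate 3 was the lowest untreated array in both. By difference these probe sets held ranks 2 and 4 from the top of 49293.

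MT1F followed with unequal size in its 2 probe sets. Probe set 11721877_s_at read 0.61, 0.22 and -0.27 on GNPs arrays and -3.61, -3.59 and -4.18 on untreated arrays, a difference of 3.98 with an error of 0.27 (15.8-fold), which was rank 1 of all probe sets. Probe set 11721878_x_at read 0.27, 0.08 and -0.32 with bare particles against -1.08, -0.93 and -1.01, a difference of 1.02 with an error of 0.21 (2.03-fold; 1.66 on the log2 scale after quantile normalization). All 3 bare-particle arrays lay above all untreated arrays in both. The suffix s marks a probe set whose probes match transcripts of more than 1 gene and x one with probes that match other sequences in part, and the paralogs are near-identical in sequence. How much of each value belongs to MT1X, to MT1F or to another paralog is therefore uncertain. The same holds for the probe sets of MT1G, MT1E, MT1H, MT1M, MT2A and MT3 that carry these suffixes.

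SLC30A1, the exporter, also lay higher with bare particles on every array. Probe set 11726006_at read 0.38, 0.35 and 0.40 on GNPs arrays and -0.74, -1.05 and -0.34 on untreated arrays, a difference of 1.09 with an error of 0.51 (2.12-fold). Probe set 11758948_s_at read -0.03, 0.00 and 0.12 against -0.36, -1.09 and -2.10, a difference of 1.21 with an error of 0.56 (2.32-fold). Both errors pool the spread of all 3 groups. The conjugate SD was the largest, 1.29 and 1.20 in the 2 probe sets, beside 0.36 and 0.88 on untreated arrays. With bare particles it was 0.03 and 0.08. The bare-particle arrays lay within a narrow band while the untreated arrays were spread wide, most of all in the second probe set. Without untreated replicate 3 the difference of that probe set was 0.75, and quantile normalization moved the 2 differences to 1.98 and 1.88.

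**Figure D1:**
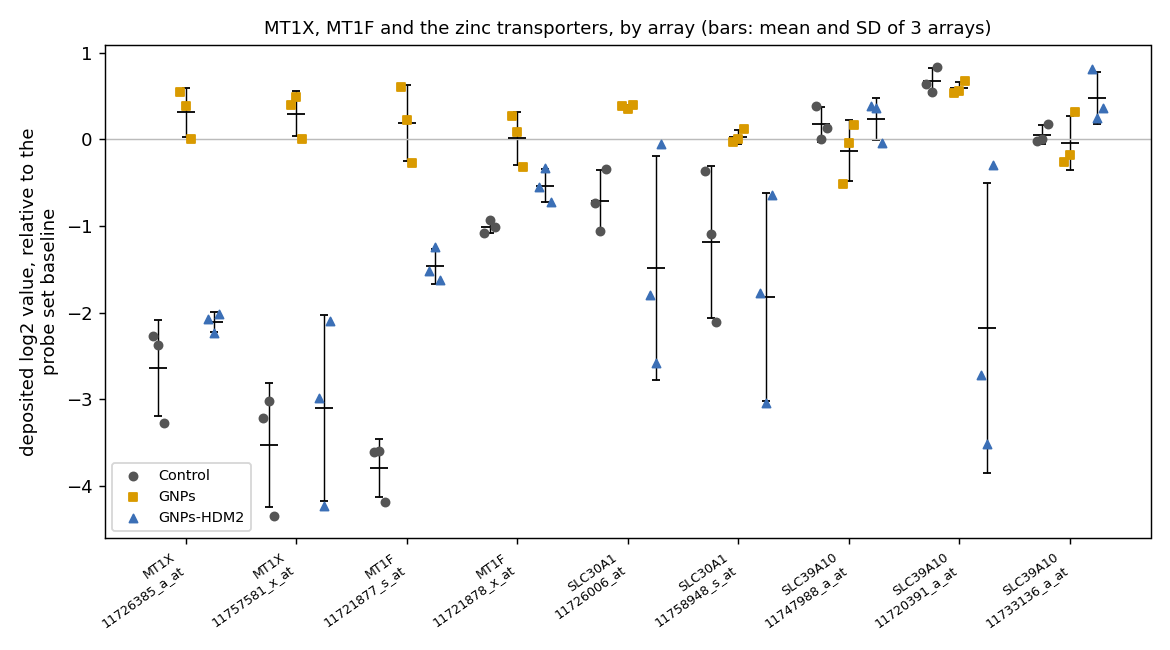
Deposited log2 values of each probe set of MT1X, MT1F, SLC30A1 and SLC39A10 (x axis) by array, relative to the probe set baseline (y axis), for Control (circles), GNPs (squares) and GNPs-HDM2 (triangles), with bars for the mean and SD of 3 arrays. The GNPs squares lie above all Control circles in the 2 probe sets each of MT1X, MT1F and SLC30A1, and SLC39A10 shows no such gap.

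The other metallothioneins did not follow MT1X and MT1F with bare particles. The 11 probe sets of MT1G, MT1E, MT1H, MT1M, MT2A and MT3 differed from untreated arrays by -0.31 to 0.41. MT2A, in many cells the main metallothionein transcript, had the highest of these, 0.41 with an error of 0.32 in 11753900_x_at, where untreated arrays themselves ran from -1.13 to -0.09. Its other probe set, 11758729_x_at, stood at -0.14 with an error of 0.22. In 4 of the 11, 1 each of MT1G, MT1E, MT1M and MT3, the bare-particle arrays lay below all untreated arrays, with differences of -0.31 to -0.17. SLC39A10, the importer, differed by -0.084, -0.095 and -0.30 in its 3 probe sets, and the groups overlapped in each.

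In all, 6 of the 20 member probe sets lay above and 4 below the untreated arrays without overlap. Over all probe sets such gaps were found for 11.5% above and 17.4% below. Limma called 2 members as higher with bare particles, and 0.00811% of all probe sets were called higher (4 of 49293). Since this contrast served to choose the genes, those counts are only a description. No probe set of the 49293 was called lower, and 885 were lower at an unadjusted p under 0.05 in limma.

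With the HDM2 peptide conjugate MT1X lay near the untreated arrays as deposited, and its difference depended on the scaling. Probe set 11726385_a_at read -2.07, -2.23 and -2.01 on conjugate arrays, just above the untreated arrays without overlap, a difference of 0.53 with an error of 0.28. Probe set 11757581_x_at read -2.98, -4.23 and -2.09 and overlapped with untreated arrays, at 0.42 with an error of 0.50. The second turned to -0.081 when conjugate replicate 3 was left out. Both probe sets are bright by their baseline, a class with a median difference of -1.04 on conjugate arrays. MT1X lay far below that baseline on untreated and conjugate arrays, so its class there is not known. Centring it as bright may therefore overstate its difference. Centring within level classes gave 1.55 with an error of 0.35 and 1.44 with an error of 0.36, and quantile normalization gave 2.34 and 3.11.

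MT1F read higher with the conjugate than on the untreated arrays, which took part in its choice, so these values are a description. Probe set 11721877_s_at read -1.52, -1.24 and -1.63, above the untreated and below the bare-particle arrays. The difference was 2.33 with an error of 0.27 (5.03-fold), and 3.35 after level centring. Untreated arrays lay far below the baseline that made this probe set bright, so the centred value may be overstated. Probe set 11721878_x_at read -0.54, -0.33 and -0.72, also between the other groups, with a difference of 0.48 and an error of 0.21, and 0.33 after level centring.

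MT1G, which codes for another of the zinc-binding isoforms, rose in 2 of 3 probe sets. In 11717385_a_at the conjugate arrays read 1.36, 1.89 and 0.69 and the untreated arrays 0.09, 0.00 and -0.17, a rise of 1.34 with an error of 0.28 (limma adjusted p = 0.00566). In 11717387_x_at they read 0.86, 1.15 and 0.54 against 0.01, -0.14 and -0.32, a rise of 0.999 with an error of 0.21 (limma adjusted p = 0.00567). The groups did not overlap in either, conjugate replicate 3 was the lowest of its group in both, and both calls held after level centring (1.20 and 0.85). Quantile normalization ended both (0.84 and 0.85, limma adjusted p = 0.0614 and 0.0527). The dim probe set 11717386_s_at stood at 0.33 with an error of 0.24 (limma adjusted p = 0.25) and at -0.14 after centring.

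MT3, known from neurons and glia, rose in both probe sets. Probe set 11753872_x_at read 1.47, 2.07 and 0.74 with the conjugate and 0.05, -0.27 and -0.21 without, a rise of 1.57 with an error of 0.30 (2.97-fold, limma adjusted p = 0.00417), and it passed in all 18 settings. Probe set 11722608_at read 0.997, 0.73 and 0.88 against 0.00, 0.18 and -0.02, a rise of 0.82 with an error of 0.18 (limma adjusted p = 0.00655). The 3 conjugate arrays lay above the untreated arrays in both, and lay closest together in the second. The first carries the suffix x, and the part of other paralogs in its value was not tested. Level centring left 1.42 and 0.67, both still called (limma adjusted p = 0.0036 and 0.0124), and quantile normalization ended the call of the second (0.36, adjusted p = 0.423).

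MT1E and MT1M rose as deposited, and their calls were lost in part of the settings. MT1E read 1.28, 1.87 and 0.27 on conjugate and 0.36, -0.03 and 0.00 on untreated arrays, so the groups overlapped, with a rise of 1.03 and an error of 0.35 (limma adjusted p = 0.0335). Its call was lost in 9 of 18 settings, among them the fits without untreated replicate 2 or 3, without conjugate replicate 1 or 2, and without any 1 bare-particle array (adjusted p = 0.0524 to 0.0965). Without conjugate replicate 2 its difference was 0.66.

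MT1M read 1.78, 0.62 and 0.42 in 11728398_x_at against 0.00, 0.04 and -0.19, a rise of 0.99 with an error of 0.32 (limma adjusted p = 0.0291). In 11728397_at it read 1.04, 0.52 and 0.45 against 0.04, 0.09 and 0.13, a rise of 0.58 with an error of 0.20 (limma adjusted p = 0.0391). The groups stood apart in both, and conjugate replicate 1 was the highest array in both. Without that array the rises were 0.57 and 0.40 and neither was called (limma adjusted p = 0.053 and 0.101). Leaving out any 1 untreated array also ended both calls, and leaving out any 1 bare-particle array or adding the replicate number as a block (0.58, adjusted p = 0.0531) ended that of 11728397_at. Level centring left 0.84 and 0.11, neither called (adjusted p = 0.0555 and 0.682).

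MT2A and MT1H showed no call. MT2A stood at 0.21 with an error of 0.32 and at -0.03 with an error of 0.22 (limma adjusted p = 0.581 and 0.915), with overlapping groups, and no setting called either probe set. MT1H, 1 dim probe set, read 0.00, 0.49 and 0.00 against -0.13, 0.00 and -0.06, a difference of 0.23 with an error of 0.20 (limma adjusted p = 0.348).

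SLC30A1 lay higher with bare particles than on the untreated arrays, which took part in its choice, so these conjugate values are a description. Probe set 11726006_at read -1.80, -2.59 and -0.06 and probe set 11758948_s_at read -1.78, -3.04 and -0.65, so that conjugate replicate 3 stood well above the other conjugate arrays in both. The differences from untreated arrays were -0.77 with an error of 0.51 and -0.64 with an error of 0.56. Without conjugate replicate 3 they were -1.48 and -1.23. Level centring turned both to 0.25 and 0.38, and quantile normalization to 0.77 and 0.94.

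SLC39A10 fell in its bright probe set and not in its others. Probe set 11720391_a_at read -2.72, -3.52 and -0.30 on conjugate arrays and 0.65, 0.54 and 0.84 on untreated arrays, a fall with a log2 difference of -2.85 and an error of 0.63 (7.23-fold lower, limma adjusted p = 0.00712). Conjugate replicate 3 moved least, and the groups did not overlap. The fall was -1.84 after level centring (adjusted p = 0.00646), and it was called in all 18 settings. Probe set 11733136_a_at, dim, stood at 0.42 with an error of 0.23 and 11747988_a_at at 0.06 with an error of 0.23 (limma adjusted p = 0.14 and 0.84). The conjugate arrays of 11733136_a_at lay above the untreated ones while those of the bright probe set lay below, so the probe sets of this gene disagree.

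**Figure D2:**
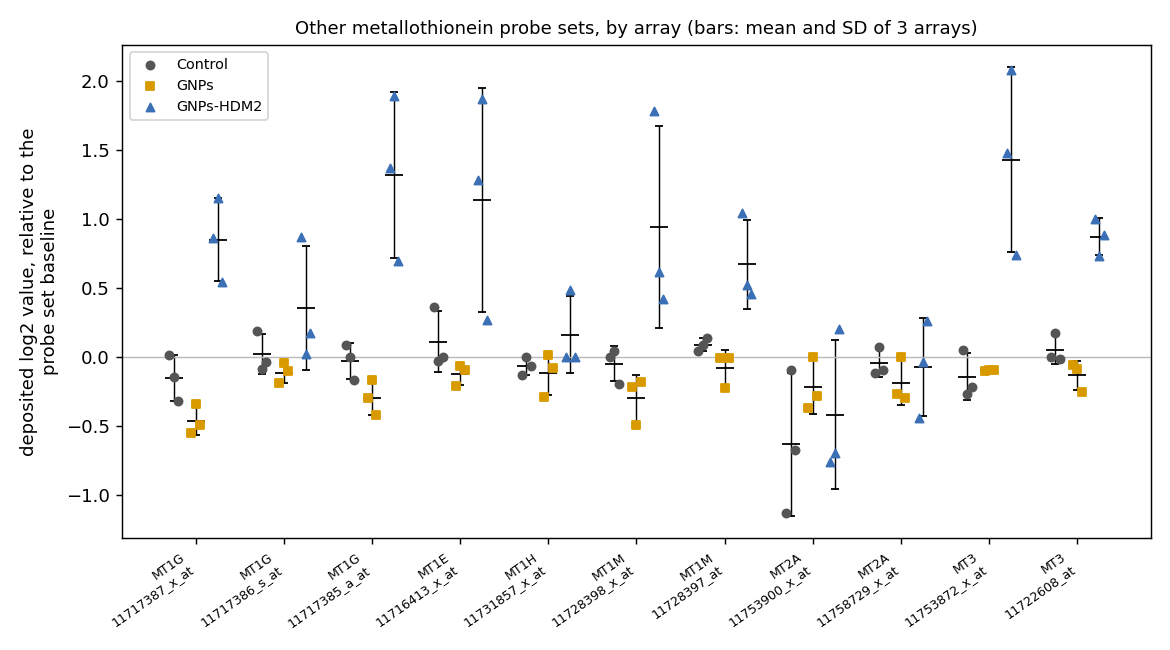
Deposited log2 values of the 11 probe sets of MT1G, MT1E, MT1H, MT1M, MT2A and MT3 by array, drawn as in the plot of MT1X and the transporters. In 4 of the 11 probe sets the GNPs squares lie below all Control circles, and the GNPs-HDM2 triangles reach their highest value, 2.07, in MT3.

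Against untreated arrays, 8 of the 15 metallothionein probe sets were called higher, 1 of them of MT1F, and 0 lower, and of the 5 transporter probe sets 1 was called lower. Most of the 8 carry the suffix s or x and may share signal between paralogs, so they are not 8 separate results. Over all probe sets limma called 24.9% higher and 23.7% lower in this comparison, so calls are common on these arrays. After level centring 8 metallothionein probe sets were again called higher, MT1X in place of MT1M, beside 19.1% of all probe sets higher and 20.5% lower. Without a test, 10 of the 20 members lay above all untreated arrays and 1 below, beside 31.4% and 22.5% of all probe sets. The MT1X, MT1F and SLC30A1 probe sets in all these counts are only a description, since the untreated arrays took part in choosing those genes. The MT1X calls also rest on the class of its baseline. The median difference of the 20 members was 0.45, beside 0.23 for all probe sets.

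Against the bare particle the conjugate differences of the members are given as a description, since the same GNPs arrays took part in choosing them. MT1X, chosen for its high values there, stood at -3.40 with an error of 0.50 in 11757581_x_at and -2.42 with an error of 0.28 in 11726385_a_at, and at -2.33 and -1.34 after level centring. MT1F stood at -1.65 with an error of 0.27 in 11721877_s_at, at -0.58 after level centring and at -0.99 after quantile normalization. Its other probe set stood at -0.54 with an error of 0.21, and at -0.70 after level centring.

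The other paralogs did not share 1 pattern. MT1G stood at 1.61 with an error of 0.28 in 11717385_a_at, 1.31 with an error of 0.21 in 11717387_x_at and 0.47 with an error of 0.24 in 11717386_s_at, where level centring gave -0.082. The differences were 1.52 and 1.003 for MT3, 1.26 with an error of 0.35 for MT1E, and 1.24 and 0.75 for MT1M, the last 0.20 after level centring. MT1H stood at 0.28 with an error of 0.20, and at -0.27 after level centring. MT2A stood at -0.20 with an error of 0.32 and 0.11 with an error of 0.22, with overlapping groups in both probe sets. For SLC30A1 the differences were -1.86 and -1.85, with errors of 0.51 and 0.56, and -0.78 in both after level centring. SLC39A10 stood at -2.77 with an error of 0.63 in 11720391_a_at, -1.70 after level centring, while its other probe sets stood at 0.52 and 0.36, with errors of 0.23.

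Of the 20 members 7 were called higher and 7 lower in this comparison, where limma called 36.3% and 28.3% of all probe sets. After level centring 6 were called higher and 5 lower, beside 26.5% and 25.5% of all. By the arrays alone, 8 lay above all bare-particle arrays and 7 below, beside 41.2% and 29.7% of all. The members' median was 0.32, beside 0.29 over all probe sets. These shares are near the background and are no result about the members.

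**Figure D3:**
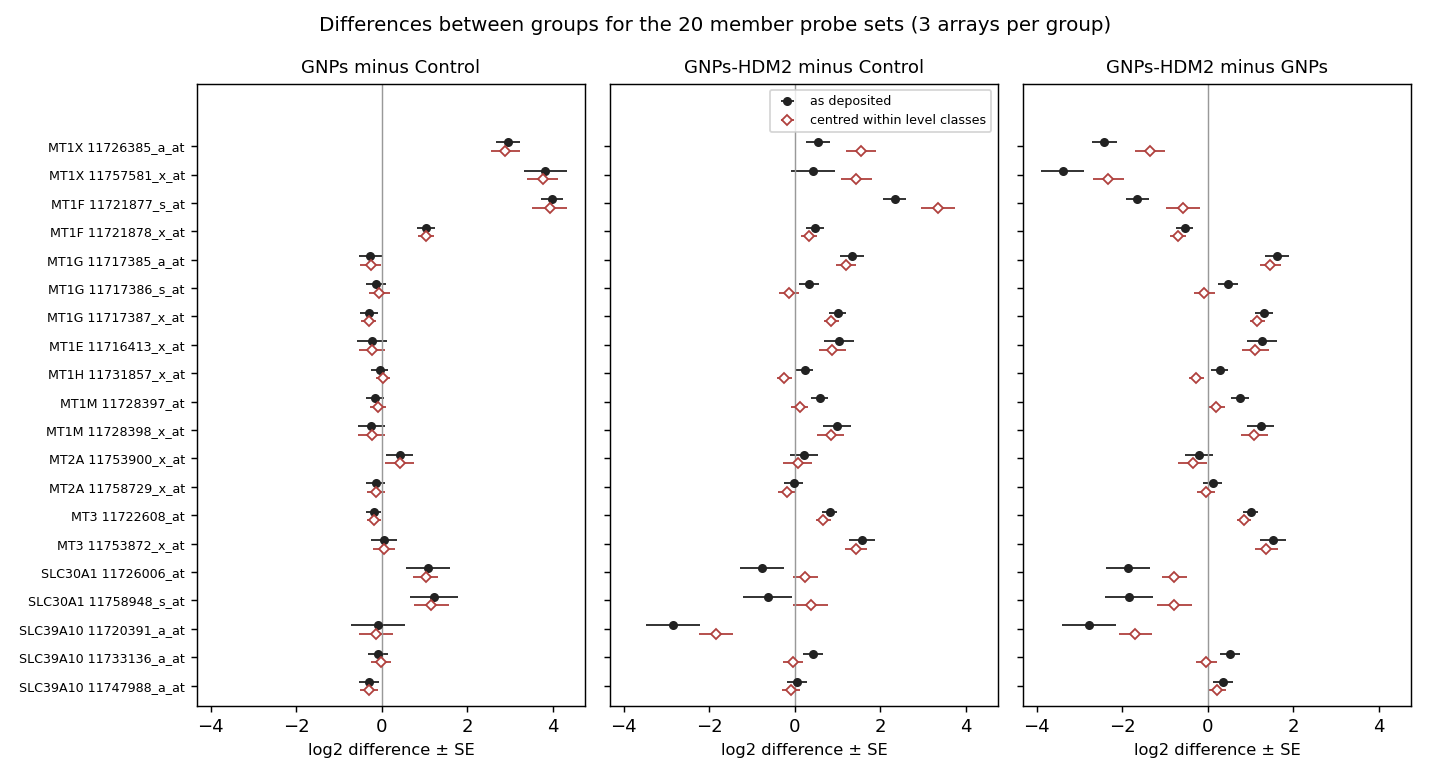
Log2 differences with standard errors (x axis) of the 20 member probe sets (rows) in 3 comparisons, as deposited (filled) and after centring each array within level classes (open). Both kinds of value lie together in the GNPs and Control panel, while centring shifts bright probe sets to the right in the panels that involve GNPs-HDM2, as for 11726385_a_at of MT1X, from 0.53 to 1.55 against Control.

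A probe set shared by MT1M and the pseudogenes MT1JP and MT1P3 is no member, since it carries several symbols, and it moved more than those of MT1M alone. It read 3.17, 3.44 and 2.13 with the conjugate, 0.76, -0.03 and -0.01 without, and -0.79, -1.01 and -0.28 with bare particles. All conjugate arrays lay above and all bare-particle arrays below the untreated ones. The rise with the conjugate was 2.67 with an error of 0.37 (limma adjusted p = 0.00135) and 2.53 after level centring (adjusted p = 0.00108), and with bare particles the difference was -0.93 with an error of 0.37 (adjusted p = 0.971). A probe set of MT1JP alone stood at 0.53 with the conjugate (limma adjusted p = 0.0589).

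Other genes of zinc and copper handling were taken as the mean of their probe sets, for 33 measured genes of 34 listed. With bare particles limma called none of them in either direction (1 higher and 0 lower at an unadjusted p under 0.05), beside 0.0221% of all genes called higher (4 of 18132), and the list median was -0.04, beside -0.06 over all genes. MTF1, the metal-sensing factor itself, stood at -0.21 with an error of 0.16 (limma adjusted p = 0.868). After quantile normalization 3 of the 33 were called higher and 2 lower, beside 2356 and 2823 of all 49293 probe sets.

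With the conjugate 7 of the 33 rose and 9 fell against untreated cells, beside 33.1% and 25.1% of all genes. The rises were led by the importer SLC39A5 (1.18 with an error of 0.27), the copper chaperone CCS (1.16 with an error of 0.24) and the vesicular zinc transporter SLC30A2 (1.11 with an error of 0.19), with limma adjusted p = 0.00775, 0.00547 and 0.00281. The deepest falls were those of the importers SLC39A6 (-2.20 with an error of 0.33) and SLC39A7 (-1.04 with an error of 0.26) and of SLC30A5, a zinc transporter of the secretory pathway (-1.62 with an error of 0.29), with limma adjusted p = 0.00183, 0.00942 and 0.0032. All 6 stayed called after level centring, at 1.03, 1.01, 2.13, -1.96, -0.41 and -1.38. Level centring called 19.1% of all probe sets higher and 20.5% lower, so calls stayed common. After quantile normalization SLC30A2 (1.04, limma adjusted p = 0.0299) and SLC39A6 (-1.06, adjusted p = 0.0256) stayed called, while SLC39A5 (0.88), CCS (0.44), SLC39A7 (-0.37) and SLC30A5 (-0.67) did not (adjusted p = 0.109, 0.146, 0.254 and 0.0554). Over the list, quantile normalization left 1 called higher and 1 lower, beside 1418 and 3822 of all 49293 probe sets. MTF1 stood at -0.15 with an error of 0.16 (limma adjusted p = 0.424), and of its 5 probe sets 11722389_at alone was called, at -1.27 (adjusted p = 0.00331). The list median was -0.04, beside 0.25 over all genes. Against the bare particle 10 of the 33 were higher and 9 lower with the conjugate, beside 43.2% and 29.1% of all genes, led by CCS (1.52), SLC39A5 (1.22) and SLC30A10 (0.99) and by SLC39A6 (-2.06), SLC30A5 (-1.65) and SLC30A9 (-1.62, and -0.55 after level centring). Against the bare particle the list median was 0.06, beside 0.30 over all genes.

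The 5 genes whose values ran closest to MT1X were found by the root mean square difference over the 9 arrays, both profiles centred, among 18122 genes outside the members. They were PIR (0.38), CTH (0.61), NQO1 (0.75), DDIT4 (0.84) and ASNS (0.92), where a flat profile would lie 1.56 from MT1X. PIR, an iron-binding nuclear protein, was measured by 1 probe set, which read 0.40, 0.16 and 0.00 with bare particles, -2.38, -2.80 and -2.98 on untreated arrays and -2.42, -2.65 and -2.48 with the conjugate. NQO1 codes for a quinone reductase, CTH for the enzyme that makes cysteine from cystathionine, ASNS for asparagine synthetase, and DDIT4 for an inhibitor of the mTORC1 kinase. Their bare-particle means lay above untreated ones by 2.29 for NQO1, 2.10 for CTH, 1.66 for DDIT4 and 1.26 for ASNS. Their conjugate means differed from untreated ones by 0.32, -0.14, -0.59 and -0.37. Since likeness to MT1X chose these genes, the differences are only a description. Among the members MT1F (0.86) and SLC30A1 (1.003) were closest to MT1X, and MT1E (1.99) was farthest.

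**Figure D4:**
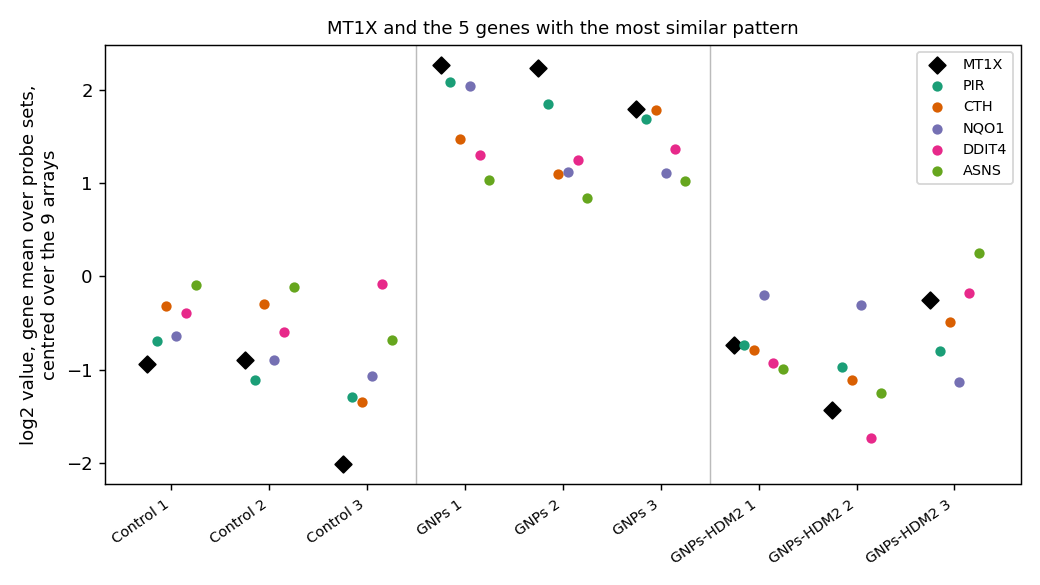
Log2 values of MT1X (diamonds) and of the 5 genes with the smallest root mean square difference from it, each the mean of the gene's probe sets and centred over the 9 arrays (y axis), by array (x axis). All 6 genes are highest on the 3 GNPs arrays, and Control and GNPs-HDM2 arrays lie below. The 5 genes were picked for likeness to MT1X, so the shared pattern follows from that choice.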

How the data were processed

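RNA of 9 samples was biotin-labelled and hybridised to Affymetrix PrimeView arrays. The authors deposited a table of log2 values, each stated against a baseline of its probe set, as read from the values, which lie on both sides of 0 and hold an exact 0 on at least 1 array in 59.7% of probe sets. The log base is not stated and was taken as 2, so fold changes rest on that choice. The software that summarised the probes is unknown here, and the number of arrays limits the precision.

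With 102 array controls left out, 49293 probe sets entered 1 fit of all 9 arrays by limma 3.58.1 (lmFit and eBayes, 2-sided) in R 4.3.3, adjusted by Benjamini-Hochberg over all probe sets, or over 18132 genes for gene means, at a threshold of 0.05. Errors are the fit's standard errors. Limma takes 1 spread for all groups, whereas the median SD was 0.12 with bare particles, 0.18 in untreated cells and 0.47 with the conjugate. The platform annotation gave 1 symbol to 44988 probe sets, several to 1832 and none to 2473.

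Members and lists were chosen with earlier results of these data known. Named are all members, MTF1, up to 3 called list genes in each direction by size, and the 5 genes nearest to MT1X. The probe sets of MT1JP and of MTF1 were named after their values were seen. Level classes came from the lowest binary digit of the stored values (18 probe sets had none). Fits and classes were tested on simulated data. Other scalings, fits and left-out arrays were tried as alternatives.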

Additional observations from a re-analysis of the deposited data

How the results depend on the processing

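Called member probe sets against untreated arrays went from 8 higher to 5 after quantile normalization and 5 in a fit of the groups compared, and from 1 lower to 3 without replicate 3 of both untreated and conjugate groups, an alternative added after the data were seen. Leaving out 1 array gave 5 to 9 higher and 1 to 3 lower, beside 5584 to 19697 higher and 8191 to 14869 lower of all 49293 probe sets. Calls of MT1X, MT1F and SLC30A1 within the member counts are a description only. Against bare particles 7 lower became 4 after quantile normalization. For bare particles against untreated arrays 2 higher became 6 after quantile normalization, 0 with trend and robust settings, 5 with array weights and 5 without both, and 1 to 3 with 1 array left out. Of all probe sets 2 to 10 were called higher for bare particles with 1 array left out.

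The zinc and copper list against untreated arrays went from 7 higher to 1 (quantile), 4 (groups compared), 4 (array weights) and 12 (without both), with 4 to 13 when 1 array was left out, and from 9 lower to 1 (quantile) and 5 (array weights). Against bare particles its 9 lower became 14 without dim probe sets. For bare particles its 0 higher became 3 (quantile) and 2 (without both), and its 0 lower 2 and 1.

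Over all probe sets, 12293 higher and 11692 lower against untreated arrays became 1418 and 3822 (quantile), 8556 and 12653 (median centring), 5333 and 8025 (groups compared), 5735 and 9421 (array weights), 7506 and 11659 (without dim probe sets) and 17896 and 14467 (without both). For bare particles 4 and 0 became 2356 and 2823 (quantile), 20 and 2 (groups compared), 624 and 177 (array weights), 7 and 0 (level centring), 0 and 0 (trend and robust) and 1235 and 208 (without both). Against bare particles 17914 and 13953 became 9940 and 11079 (quantile) and 10550 and 13664 (without dim probe sets).

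Signs turned in differences that no test called as deposited. Against untreated arrays, level centring gave -0.14 (MT1G 11717386_s_at), -0.25 (MT1H), 0.25 and 0.38 (SLC30A1), and -0.049 and -0.088 (SLC39A10 11733136_a_at and 11747988_a_at). Quantile normalization gave 0.77 and 0.94 (SLC30A1), 0.10 (MT2A 11758729_x_at) and -0.28 (SLC39A10 11747988_a_at), for which median centring gave -0.11. Without both, MT1X 11757581_x_at stood at -0.49 and MT2A 11753900_x_at at -0.12. With 1 array left out, MT1X 11757581_x_at ran from -0.081 to 0.99, MT2A from -0.10 to 0.48 and from -0.20 to 0.16, and SLC39A10 11747988_a_at from -0.028 to 0.20. Against bare particles, level centring gave -0.082 (MT1G 11717386_s_at), -0.27 (MT1H), -0.038 (MT2A 11758729_x_at) and -0.032 (SLC39A10 11733136_a_at), median centring -0.056 and leaving out both -0.052 (MT2A 11758729_x_at), and quantile normalization 0.36 (MT2A 11753900_x_at). With 1 array left out MT2A 11758729_x_at ran from -0.052 to 0.30. The cause was not tested.

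Whether replicate numbers pair the samples could not be decided. Arrays of the same number correlated at -0.03 to 0.23 (9 pairs) and arrays of different numbers at -0.22 to 0.18 (18 pairs). Arrays were closest to their own number in 8 of 18 cases. The 2 ranges overlap, and the arrays per group are too few to show or exclude a pairing. With the replicate number as a block, 7 members were called higher and 1 lower against untreated arrays, 7 and 7 against bare particles, and 2 higher for bare particles. Of all 49293 probe sets this block called 11817 and 11887, 17133 and 13884, and 4 higher in the same comparisons. The 1 member call it ended was that of MT1M 11728397_at against untreated arrays (0.58, limma adjusted p = 0.0531), and it ended no other member call in the comparisons with the conjugate.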
